A study of Mus musculus with 20 samples.

Results

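Mouse regulatory T cells (Tregs) were sequenced for their RNA after 90 min with either IL-2 or its variant IL-2-REH. The comparison rests on 6 of the 20 libraries of the series, 3 for each cytokine, which were taken by their labels. The comparison itself was chosen with earlier results of these data known. IL-2-REH is IL-2 with substitutions in the surface that contacts the common gamma chain (γc), and it acts as a partial agonist. Both cytokines were given at 200 nM, so dose and time were matched and the groups differed in the cytokine. The cells came from spleen and lymph node of B6-Foxp3EGFP mice, were enriched for CD4+ T cells and were sorted for GFP, which in these mice marks cells that express Foxp3. The sample records give C57BL/6N as the strain, and they give neither age nor sex. The study's methods list female mice of this reporter strain. Unstimulated Tregs (3 libraries) and Tregs stimulated for 4 hr (3 libraries with each cytokine) completed the 15 Treg libraries, and CD8+ T cells had 1 library per condition (5 in all). The labels number the replicates 1 to 3 in each group and do not say whether a number is a mouse, a pool of mice or a day of the experiment.

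IL-2 binds a receptor made of IL-2Rα, IL-2Rβ and γc. The latter chains bring the kinases JAK1 and JAK3 together, which phosphorylate the transcription factor STAT5, and STAT5 switches on genes that feed back on signaling, support survival and drive growth. Tregs carry IL-2Rα constitutively and depend on IL-2 for the expression of Foxp3. A response at 90 min includes genes that are read directly after the receptor is engaged. Direct and later effects were not told apart here.

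The IL-2 libraries held 41897954 to 50405635 reads on genes and the IL-2-REH libraries 42756569 to 52503925, so depth did not separate the cytokines. Levels are given as RPKM, the reads on a gene scaled by its exon length and by the mapped reads of the library. Replicate numbers carried more variation than the cytokine. With 1 added to each RPKM, 48 to 52 of 10197 genes with a mean of at least 1 RPKM differed by more than 2-fold (1 on the log2 scale) within a same-numbered pair. Between libraries of the same cytokine and different number, 80 to 618 genes did. Deviations from the group means correlated across genes at 0.895, 0.851 and 0.859 within same-numbered pairs and at -0.679 to 0.0299 otherwise. The deviations of a group cancel for each gene, so high values within pairs by themselves push the others down. The sex-linked genes divided the libraries by the same numbers, since Xist was at 43.6 to 65.2 RPKM in the 5 Treg libraries numbered 2 and at 0.0119 to 0.087 RPKM in those numbered 1 and 3. Ddx3y, on the Y chromosome, was at 20 to 78.6 RPKM in the libraries numbered 1 and 3 and at most at 0.0119 RPKM in those numbered 2, so the libraries numbered 1 and 3 do not have the pattern of female mice. Replicates that share a number were therefore treated as pairs.

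Of the unstimulated libraries, replicate 1 stood apart. It differed by more than 2-fold from replicates 2 and 3 at 1731 and 1303 genes, against 146 between replicates 2 and 3. It does not enter the paired comparison. The 6 libraries carried the markers of their label. Summed over 7 pan T cell markers the level was 1200 to 1270 RPKM with IL-2 and 1250 to 1360 RPKM with IL-2-REH, and Foxp3 was at 90.5 to 252 RPKM. Macrophage and monocyte markers (18 genes) summed to 17.6 to 62.1 RPKM with IL-2 and 21.2 to 69.7 RPKM with IL-2-REH. Erythroid markers (9 genes) were at 137 RPKM or more in replicate 3 of both groups and at 7.29 to 21.5 RPKM in the other libraries. Granulocyte markers (7 genes) were likewise at 175 and 199 RPKM in replicate 3 and at 3.97 to 8.75 RPKM elsewhere. Their part in the differences was not tested. B cell markers (8 genes), NK cell markers (5 genes), CD8 markers (2 genes) and dendritic cell markers (6 genes) summed to at most 13.1, 4.64, 6.65 and 4.17 RPKM. No marker of macrophages, B cells, erythroid cells, granulocytes, CD8+ T cells or NK cells passed in the paired test described next, and 1 gene of the dendritic list did (Zbtb46).

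Several genes of the IL-2 response were lower with IL-2-REH than with IL-2, among them the feedback inhibitors Cish and Socs1, the growth regulator Myc, the cytokine Lta and the methyltransferase Ezh2, each by 1.02 to 1.50 on the log2 scale. Bcl6, a transcriptional repressor, was 3.97-fold higher. How many genes passed depended on the fit. In the edgeR fit of all 15 Treg libraries, which ignores the pairs and shares one estimate of the spread, 2 of 14992 genes passed an adjusted p of 0.05 (0.0133%), Gpsm2 and Txnrd1, both lower with IL-2-REH. At an unadjusted p under 0.05, 122 genes were lower and 27 higher. In the edgeR fit of the 6 libraries with the replicate number as a block, here called the paired fit, 1075 of 13569 genes passed (7.92%), 595 lower (4.38%) and 480 higher (3.54%). A block over all 15 libraries left the count at 2, the 6 libraries without pairs gave 0, and the 12 stimulated libraries with a block gave 12, so the higher count came with the 6 libraries and the pairs together. DESeq2 on the 6 paired libraries gave 1026 of 11201 genes (9.16%), 526 lower (4.7%) and 500 higher (4.46%), and 953 of them were among the 1075. The median standard error of a log2 fold change was 0.33 in the fit of 15 libraries and 0.084 in the paired fit. In what follows, rose and fell refer to genes that passed in the paired fit, their values are from that fit unless the 15 libraries are named, and only Gpsm2 and Txnrd1 also passed in the fit of 15 libraries.

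The differences were small for most genes. Of the 1075 genes, 330 differed by more than 0.5 on the log2 scale (230 lower, 100 higher), 64 by more than 1 (54 lower, 10 higher) and 3, all lower, by more than 2. The median was -0.43 among genes that fell and 0.35 among those that rose, and it was 0.0035 over all genes tested. The sign was the same in all 3 pairs for 594 of 595 and 478 of 480 genes. The genes were chosen by a fit of these same pairs, so this is nearly given by the choice and is no separate support. The shares without overlap that follow come from the same libraries. The RPKM of the groups did not overlap for 44.4% of the genes that fell and 32.9% of those that rose, against 3.18% and 2.48% of all tested genes in the respective directions. The 95% interval of the log2 fold change lay within 1 of 0 for 12039 genes (88.7%), so that a difference of more than 2-fold was outside the interval for these. In the fit of 15 libraries this held for 8800 genes (58.7%). Without replicate 1, 2 or 3, 1590, 938 and 606 genes passed.

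**Figure D1:**
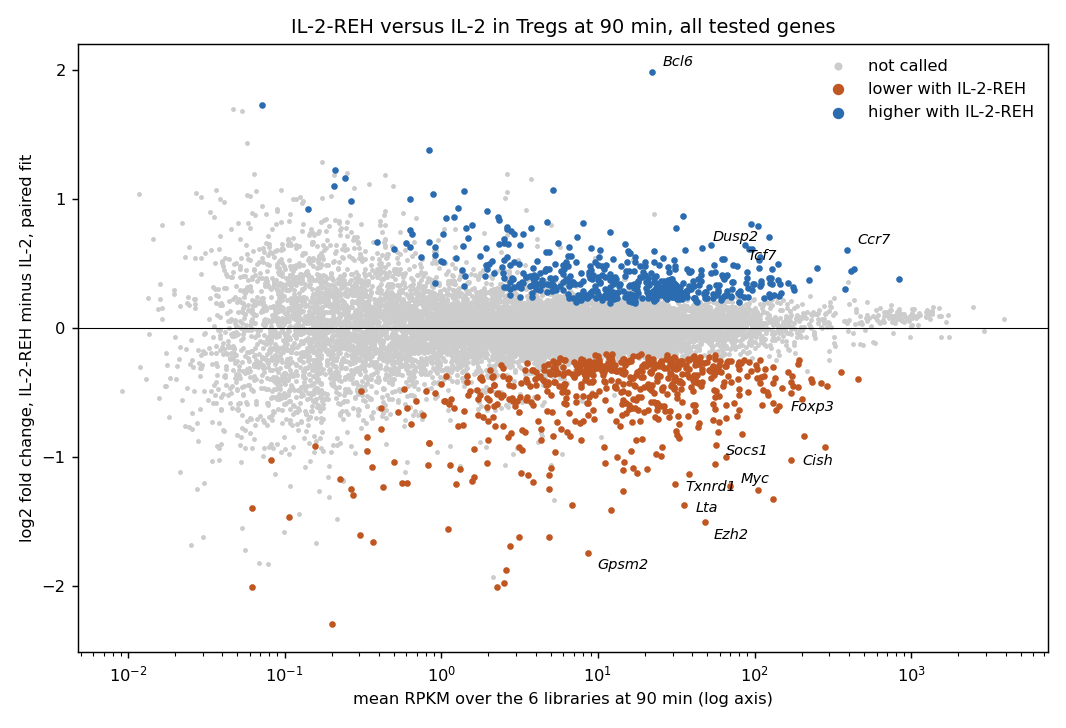
Log2 fold change of IL-2-REH minus IL-2 at 90 min in the paired fit (vertical axis) against the mean RPKM over the 6 libraries (horizontal log axis), 1 point per gene tested; orange marks the 595 genes that fell, blue the 480 that rose and grey the rest. Bcl6 lies alone at the top at moderate level, and the labelled genes that fell lie between -0.60 and -1.74.

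Gpsm2 encodes a protein that binds Gi alpha subunits and orients the mitotic spindle. Its level with IL-2 was 16.8, 12.6 and 10.2 RPKM in replicates 1 to 3, and with IL-2-REH it was 6.22, 3.34 and 2.84 RPKM. Unstimulated cells had 1.34 to 1.95 RPKM, so both cytokine groups were above them and did not overlap with each other. The log2 fold change was -1.70 ± 0.20 (SE; adjusted p = 0.00987, edgeR, 15 libraries) and -1.74 ± 0.092 in the paired fit (adjusted p = 4.41e-07), which leaves 29.9% of the level with IL-2. Txnrd1, the cytosolic thioredoxin reductase, was at 45.7, 43.7 and 39.7 RPKM with IL-2 and at 21.2, 18.0 and 17.5 RPKM with IL-2-REH. Unstimulated cells had 12.5 to 16.3 RPKM, close below the IL-2-REH libraries. Its log2 fold change was -1.20 ± 0.15 (adjusted p = 0.00987, edgeR, 15 libraries) and -1.20 ± 0.060 in the paired fit (adjusted p = 4.41e-07). Gpsm2 lies on chromosome 3 at 108678270 to 108722331 (GRCm38) and overlaps Clcc1 there, and Txnrd1 lies on chromosome 10 at 82833951 to 82897724, where Eid3 and Gm38560 lie within or across it. Eid3 also fell (-1.56 ± 0.18), and as it lies within Txnrd1 on the same strand, reads of these genes may be shared.

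Most other members of either family did not pass. Of 12 tested GPSM proteins and Gi partners, Prkci was the other that fell (-0.28) and none rose, against 4.38% and 3.54% of all genes. The median was 0.0015. Gpsm1, Gpsm3, Gnai2 and Gnai3 had intervals of -0.17 to 0.18, -0.014 to 0.24, -0.067 to 0.21 and -0.21 to 0.047 on the log2 scale. Among 40 thioredoxin and glutathione genes, Txnrd1 was the 1 that fell and 6 rose, against 4.38% and 3.54% of all genes. The 6 rose by 0.22 to 0.39, including the lipid hydroperoxide reductase Gpx4 (0.39 ± 0.057) and the ferritin heavy chain gene Fth1 (0.38 ± 0.070). Txn1, the substrate of Txnrd1, was at 37.6 to 55.4 RPKM with IL-2 and 36.5 to 62.0 RPKM with IL-2-REH (interval -0.17 to 0.13).

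Genes that STAT5 is known to activate or repress fell more often than they rose. Of 24 tested, 14 fell and 3 rose (against 4.38% and 3.54% of all genes), and the median log2 fold change was -0.34. Cish, which blocks recruitment of STAT5 to the receptor, was at 238, 262 and 187 RPKM with IL-2 and at 128, 117 and 97.0 RPKM with IL-2-REH, against 54.0 to 65.5 RPKM in unstimulated cells. The 3 levels were thus ordered without overlap, with IL-2-REH between. Cish fell by 1.02 ± 0.072 on the log2 scale (adjusted p = 4.11e-06, paired edgeR fit), to 49.3% of the IL-2 level. In the fit of 15 libraries the log2 fold change was the same, -1.02 ± 0.18, with an adjusted p of 0.164.

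Socs1, an inhibitor of JAK kinases, was at 120, 67.9 and 39.1 RPKM with IL-2 and at 61.0, 26.8 and 22.6 RPKM with IL-2-REH. Its groups overlapped because the replicates spread widely, yet each IL-2-REH library lay at 39.5% to 57.6% of its partner (log2 fold change -1.05 ± 0.085). Socs2 was at 48.9, 35.2 and 35.4 RPKM with IL-2 and at 32.1, 19.6 and 19.0 RPKM with IL-2-REH (-0.79 ± 0.069), and Socs3 fell less (-0.32 ± 0.081). Myc was at 53.8, 148 and 92.4 RPKM with IL-2 and at 28.5, 54.7 and 38.4 RPKM with IL-2-REH. In unstimulated cells it was at 15.2, 35.9 and 27.1 RPKM, so within each number IL-2-REH lay above unstimulated cells and below IL-2. Myc fell by 1.23 ± 0.088 in the paired fit.

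Further STAT5 targets fell. The kinase gene Pim2 went from 22, 36.1 and 30.9 RPKM with IL-2 to 14.1, 21.3 and 19.7 RPKM with IL-2-REH (-0.70 ± 0.059). The survival genes Mcl1 and Bcl2 fell by 0.54 ± 0.078 and 0.24 ± 0.058. Osm, Gadd45g, Prdm1 and the D-type cyclin gene Ccnd2 fell by 0.72, 0.86, 0.54 and 0.36. Pim1 was at 258 to 321 RPKM with IL-2 and 315 to 327 RPKM with IL-2-REH and did not pass (interval 0.0075 to 0.33), and neither did Bcl2l1, which encodes BCL-XL (interval -0.23 to 0.051). Pim3 (0.33 ± 0.069), Id2 (0.23) and Bcl6 rose. In the alternatives to the paired fit, 13 to 16 members of this list fell and 1 to 3 rose. In the fit of 15 libraries 7 members were lower and 1 higher at an unadjusted p under 0.05, and 0 passed after adjustment (edgeR).

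**Figure D2:**
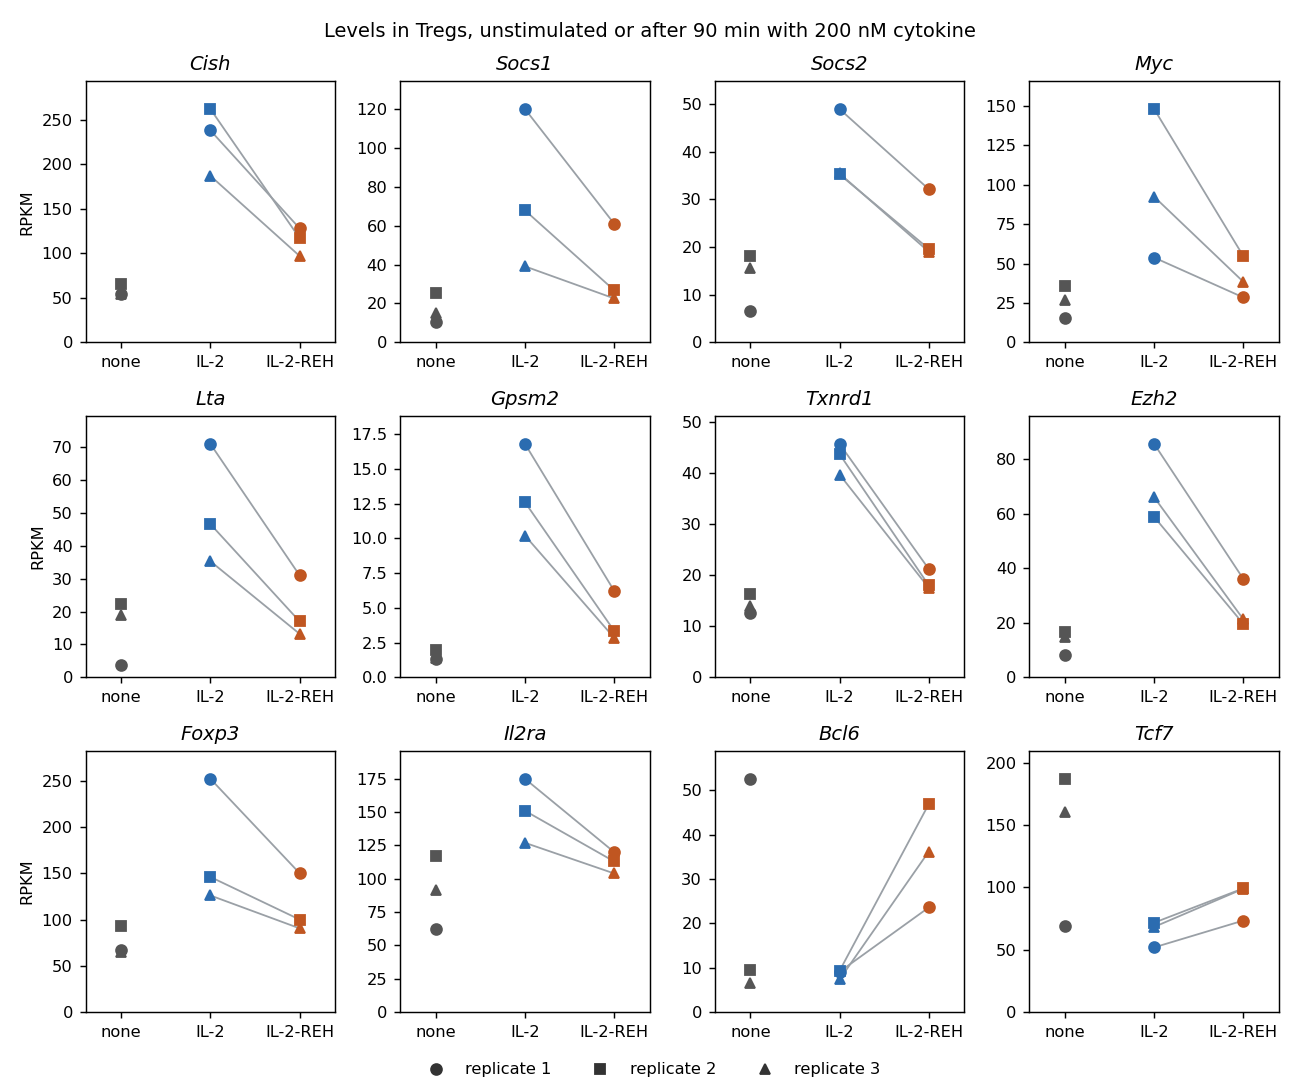
RPKM of 12 genes in unstimulated Tregs (none) and after 90 min with IL-2 or IL-2-REH, 1 panel per gene with its own axis from 0; marker shape gives the replicate number and grey lines join same-numbered libraries. Every line falls from IL-2 to IL-2-REH except in the panels of Bcl6 and Tcf7, where all 3 rise.

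Bcl6 had the highest value of all genes that passed. It encodes a repressor that STAT5 is known to silence and that opposes PRDM1 (Blimp-1) in T cells. With IL-2 it was at 9.10, 9.31 and 7.37 RPKM, and with IL-2-REH at 23.6, 46.9 and 36.2 RPKM, without overlap. Unstimulated cells were at 52.6 RPKM in replicate 1, the library that stood apart, and at 9.43 and 6.63 RPKM in replicates 2 and 3. With IL-2-REH, Bcl6 was thus above unstimulated cells in replicates 2 and 3 and below them in replicate 1. The log2 fold change was 1.99 ± 0.13 in the paired fit (adjusted p = 3.53e-06, 3.97-fold) and 2.08 ± 0.66 over 15 libraries (unadjusted p = 0.00937, adjusted p = 1.0, edgeR). In pairs 1, 2 and 3 it was at 259%, 504% and 491% of the IL-2 level. Prdm1 went the other way, from 5.33, 4.09 and 5.12 RPKM to 3.70, 2.87 and 3.56 RPKM.

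Most genes of the receptor and its kinases did not pass. Of 15 genes of the IL-2 receptor and the JAK-STAT pathway, 2 fell, among them Il2ra, and Grb2 rose. Over all genes 4.38% fell and 3.54% rose, and the list median was 0.023. Il2ra, the gene of the chain that gives the receptor its high affinity, was at 175, 151 and 127 RPKM with IL-2 and at 120, 113 and 104 RPKM with IL-2-REH (-0.43 ± 0.069), against 62.7 to 117 RPKM in unstimulated cells. For Il2rg, the gene of γc, the interval was -0.024 to 0.25, and for Il2rb it was -0.33 to -0.022 with an adjusted p of 0.197 (edgeR). Jak1 and Jak3 had intervals of -0.12 to 0.17 and -0.38 to 0.0047. Stat5a was at 113 to 127 RPKM with IL-2 and 135 to 143 RPKM with IL-2-REH (0.079 to 0.37, adjusted p = 0.0628), and Stat5b had an interval of -0.070 to 0.22. These intervals leave room for differences of up to about 0.4 on the log2 scale and none as large as that of Cish.

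Genes of Treg identity and function shifted mostly downward. Of 25 tested, 12 fell and 2 rose, against 4.38% and 3.54% of all genes, and the median was -0.12. In the fit of 15 libraries 3 were lower and 0 higher at an unadjusted p under 0.05, and 0 passed after adjustment (edgeR). Foxp3, the defining transcription factor, was at 252, 146 and 126 RPKM with IL-2 and at 150, 100 and 90.5 RPKM with IL-2-REH, and at 67.0, 92.8 and 65.2 RPKM without stimulation. Within every number, IL-2-REH lay between unstimulated cells and IL-2, although the groups overlapped. Foxp3 fell by 0.60 ± 0.070, and it overlaps Flicr and Ccdc22 on the X chromosome, whose reads may be shared. Gpr83, a Treg-enriched receptor, fell by 0.999 ± 0.087, from 108, 75.2 and 73.8 RPKM to 66.8, 35.8 and 32.3 RPKM, and the chemokine receptor gene Ccr4 by 0.85 ± 0.069.

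Further genes of the list fell as well. Lrrc32, which presents latent TGF-β, fell by 0.44, Icos by 0.50, Entpd1 (CD39) by 0.57, Fgl2 by 0.63 and the transcription factor gene Ikzf4 (Eos) by 0.39. Tnfrsf4 (OX40) and Tnfrsf18 (GITR) fell by 0.40 and 0.34 from levels of 278 to 605 RPKM. Il10 rose by 0.33 ± 0.074, from 11.1, 19.5 and 17.0 RPKM to 15.5, 22.6 and 21.6 RPKM, and Ccr8 by 0.34. Ctla4, at 386 to 589 RPKM with IL-2, and Ikzf2 (Helios), at 58.0 to 67.6 RPKM, did not pass, with intervals of -0.27 to 0.031 and -0.22 to 0.11. In the alternatives to the paired fit, 11 or 12 members fell and 0 to 3 rose.

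Among ligands and receptors of the TNF superfamily, 9 of 27 fell and 3 rose, against 4.38% and 3.54% of all genes (median -0.058). Without replicate 1, 11 fell and 7 rose and the median was 0.025, and in the other alternatives 7 to 11 fell and 2 to 6 rose. Lta, which encodes lymphotoxin alpha, was at 71.0, 46.6 and 35.3 RPKM with IL-2 and at 31, 17.0 and 13.2 RPKM with IL-2-REH. Unstimulated cells had 3.84, 22.3 and 19.0 RPKM, so that in replicates 2 and 3 the IL-2-REH libraries lay below unstimulated cells and in replicate 1 above. Lta fell by 1.37 ± 0.068 (adjusted p = 4.41e-07, paired edgeR fit). Its neighbors Tnf and Ltb fell by 0.39 and 0.24, Fasl by 0.41 and Fas, its receptor, by 0.68 ± 0.090. Tnfsf4 (OX40 ligand) rose from 1.91, 2.15 and 1.70 RPKM to 3.21, 4.07 and 2.79 RPKM (0.78 ± 0.11), Cd27 rose by 0.46 and Tnfrsf1a by 0.30. Of 14 cytotoxic and effector cytokine genes, Gzmb, Gzma and Il22 fell and none rose, against 4.38% and 3.54% of all genes. The median was -0.57, but some members were at low levels. Csf2 was at 0.455 RPKM or less in the 6 libraries, and Il22 at 0.391 RPKM or less with IL-2-REH. Computed from RPKM + 1, the list medians were -0.086, -0.339 and -0.188 in pairs 1, 2 and 3. Gzmb was at 14.2, 8.62 and 5.50 RPKM with IL-2 and at 10.5, 4.52 and 3.07 RPKM with IL-2-REH (-0.73 ± 0.11). Ifng was at 0.591, 7.21 and 2.70 RPKM and at 0.816, 3.21 and 2.07 RPKM, which did not pass (-0.57 ± 0.22, adjusted p = 0.175, edgeR), and its sign was not the same in all pairs.

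Feedback genes moved in both directions. Of 20 DUSP, Sprouty and SOCS genes, 6 fell and 4 rose, against 4.38% and 3.54% of all genes. Those that fell were Cish, Socs1 to Socs4 and Spred1, an inhibitor of Ras signaling (-0.76 ± 0.081). Cish and Socs1 to Socs3 were also counted among the STAT5 targets above. Of the 4 that rose, 3 encode phosphatases that act on MAP kinases, Dusp1, Dusp2 and Dusp10, and the other was Socs5 (0.51 ± 0.065). Dusp1 was at 69.8, 90.3 and 65.0 RPKM with IL-2 and at 101, 144 and 105 RPKM with IL-2-REH (0.62 ± 0.059). Dusp2 was at 32.5, 40.8 and 34.1 RPKM and at 45.3, 68.1 and 55.1 RPKM (0.62 ± 0.061), and Dusp10 rose by 0.81 ± 0.070. The groups of all 3 did not overlap. Dusp4, Dusp5 and Dusp6 did not pass, with intervals of -0.34 to -0.043, 0.087 to 0.37 and -0.14 to 0.30.

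Immediate early genes, which are read within minutes of stimulation or of handling, were higher with IL-2-REH more often than lower. Of 23, 10 rose and 3 fell, against 3.54% and 4.38% of all genes, and the median was 0.22. Fos rose by 0.41, Fosb by 0.54, Fosl2 by 0.47, Junb by 0.31, Egr3 by 0.48, Klf4 by 0.58 and the orphan receptor genes Nr4a1 and Nr4a2 by 0.44 and 0.61, beside Dusp1 and Dusp2. Jun fell by 0.70 ± 0.082, from 78.1, 93.3 and 72.9 RPKM to 54.6, 48.1 and 49.2 RPKM, and Ier3 and Klf6 fell by 0.69 and 0.39. The pairs differed here, with list medians of -0.039, 0.32 and 0.40 for pairs 1, 2 and 3. In unstimulated cells Fos was at 146, 132 and 341 RPKM, above the 43.7 to 93.2 RPKM of the 6 stimulated libraries. Dusp1 was likewise higher unstimulated, at 221, 214 and 315 RPKM against 65.0 to 144 RPKM. Other members that rose were not. Fosl2 was at 101, 3.93 and 9.81 RPKM unstimulated and at 81.4 to 148 RPKM in the 6 libraries. Nr4a2 was at 83.3, 7.13 and 18.3 RPKM unstimulated and at 42.3 to 147 RPKM in the 6 libraries.

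Genes of quiescence and of homing to lymph nodes rose in 5 of 21 cases and fell in 2, against 3.54% and 4.38% of all genes, with a median of 0.087. Ccr7, the receptor that brings T cells into lymph nodes, was at 289, 396 and 237 RPKM with IL-2 and at 415, 588 and 408 RPKM with IL-2-REH (0.61 ± 0.072). Tcf7, which encodes TCF-1, was at 51.9, 71.7 and 68.3 RPKM and at 73.4, 99.2 and 98.9 RPKM (0.49 ± 0.058). Il7r, Tsc22d3 and Ddit4 rose by 0.38, 0.36 and 0.65, and Btg1 and Pdcd4 fell by 0.40 and 0.37. Klf2, with an interval of -0.14 to 0.17, did not pass. Cd5, an inhibitory receptor on T cells, was at 98.4, 95.6 and 69.5 RPKM with IL-2 and at 142, 135 and 111 RPKM with IL-2-REH (0.55 ± 0.062), and the 6 libraries were below all unstimulated ones.

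In the BCL2 family, 6 of the 16 genes tested passed, against 7.92% of all genes. Of these the 2 that fell, Mcl1 and Bcl2, protect cells from death, and the 4 that rose encode BH3-only proteins, which promote it. Bmf rose from 1.50, 2.34 and 1.14 RPKM to 2.53, 4.46 and 2.08 RPKM (0.84 ± 0.082), Bbc3 (PUMA) by 0.48 ± 0.078, Bcl2l11 (BIM) by 0.34 ± 0.064 and Pmaip1 (NOXA) by 0.35 ± 0.057. Mcl1 was at 201, 261 and 248 RPKM with IL-2 and at 157 to 168 RPKM with IL-2-REH.

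Growth and metabolic lists had medians within 0.1 of 0 on the log2 scale, and their counts stand against 4.38% lower and 3.54% higher over all genes. Of 35 ribosome biogenesis genes 4 fell, Rrs1, Nop2, Srm and Gnl3 (by 0.24 to 0.41), and none rose, with a median of -0.078. Of 19 cyclins, CDKs and CDK inhibitors, Ccnd2 fell and the inhibitor Cdkn2d rose (0.55 ± 0.080). Of 29 genes of cholesterol and fatty acid synthesis, 2 fell, among them Elovl6 by 0.58, and Mvk rose by 0.71. Of 24 genes of glycolysis and amino acid transport, 3 fell, among them Hif1a (-0.58 ± 0.071, from 144 to 171 RPKM to 104 to 107 RPKM), and 3 rose, among them the lactate exporter gene Slc16a3 (0.78 ± 0.060). Medians of these lists were -0.019, 0.020 and 0.048.

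**Figure D3:**
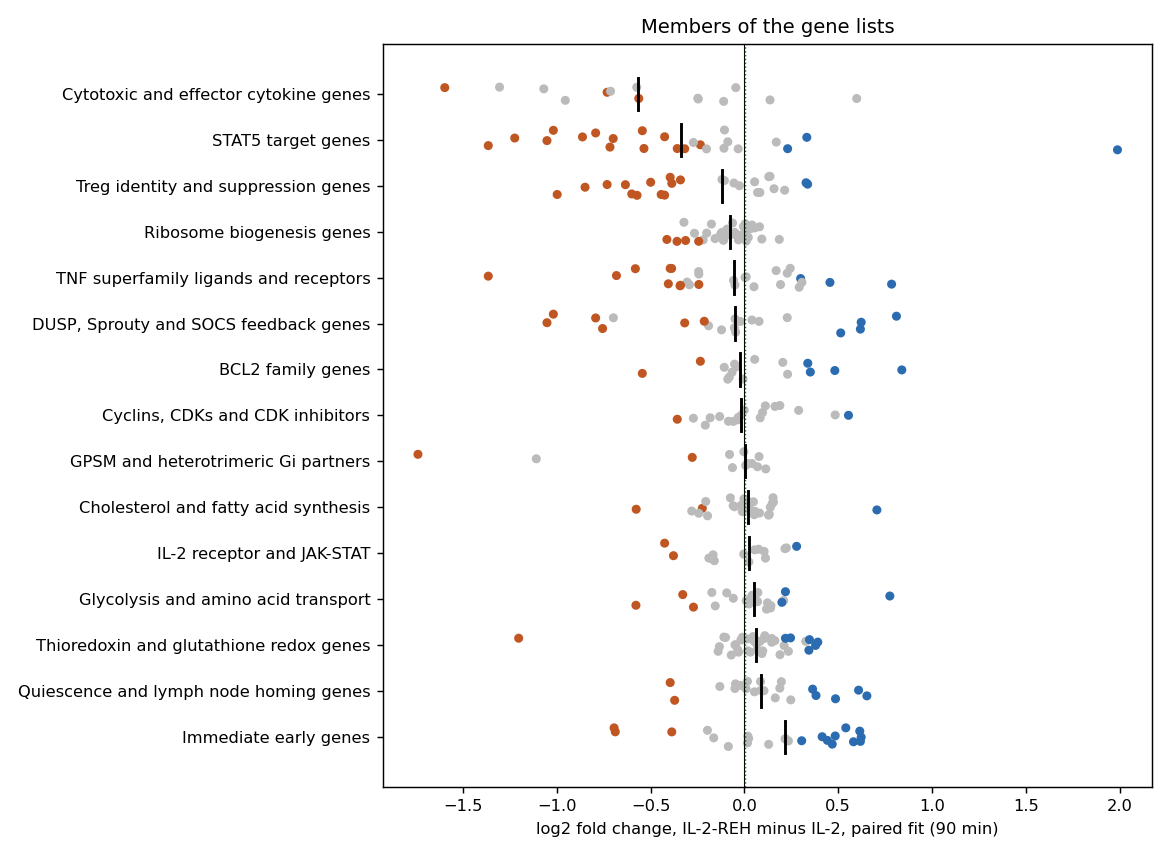
Log2 fold change of IL-2-REH minus IL-2 at 90 min in the paired fit (horizontal axis) for the tested members of 15 gene lists (rows), 1 point per gene; orange marks genes that fell, blue genes that rose and grey genes that did not pass, black bars mark list medians and the dotted line the median of all genes. STAT5 targets spread from -1.37 to 1.99 with most members left of 0, and immediate early genes lie mostly to the right.

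The lowest and highest values of the paired fit, chosen after they were seen, held genes outside these lists. Ezh2, the methyltransferase of Polycomb repressive complex PRC2, was at 85.7, 58.9 and 66.1 RPKM with IL-2 and at 36.1, 19.6 and 21.3 RPKM with IL-2-REH, against 8.02 to 16.7 RPKM in unstimulated cells. Ezh2 fell by 1.50 ± 0.078 and overlaps F830010H11Rik. Kpna1, which encodes an importin alpha, was at 153, 216 and 194 RPKM with IL-2 and at 65.6, 85.6 and 74.7 RPKM with IL-2-REH, against 11.4 to 34.5 RPKM without stimulation (-1.33 ± 0.069). Rnf19b, a ubiquitin ligase gene, was at 183, 131 and 127 RPKM and at 81.4, 50.2 and 56.9 RPKM (-1.25 ± 0.067). For each of these, both groups were above all unstimulated libraries and did not overlap.

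Less abundant genes with large values included Frmd4b (-1.37 ± 0.077), Ppp1r3b, which encodes a subunit that targets a phosphatase to glycogen (-1.19 ± 0.085), the chemokine-like gene Fam19a3 (-1.21 ± 0.10), Adam19 (-1.13 ± 0.064), Tmbim1 (-1.12 ± 0.057), Mettl13 (-1.10 ± 0.061) and Cd200 (-1.09 ± 0.063). Il10ra, the IL-10 receptor gene, was at 39.1, 31.8 and 29.5 RPKM with IL-2 and at 19.3, 16.9 and 14.8 RPKM with IL-2-REH (-0.99 ± 0.056). Rragd, a GTPase gene of the mTORC1 pathway, was at 17.6, 13.2 and 13.3 RPKM and at 9.97, 5.92 and 6.18 RPKM (-1.04 ± 0.073). The members of a near-identical family on chromosome 5, Gm6460, Gm6455, 4933402N22Rik and Speer1-ps1, had log2 fold changes of -1.68 to -2.0, and reads cannot be assigned among them with certainty. Mir19b-1 and Mir92-1 (-1.62 and -1.41) lie in the host gene Mir17hg, so these libraries of longer RNA say nothing of the mature miRNAs. Of the genes that rose furthest, Arl5c was at 20.5, 36.3 and 17.8 RPKM with IL-2 and at 40.1, 62.3 and 33.7 RPKM with IL-2-REH (0.87 ± 0.062). Il21r, the IL-21 receptor gene, was at 66.3, 93.5 and 68.5 RPKM and at 97.5 RPKM or more with IL-2-REH, without overlap (0.79 ± 0.076). Ramp3, a coreceptor gene, rose by 0.50 ± 0.065, from 186, 100 and 71.5 RPKM to 239, 141 and 115 RPKM, and Gls2 by 0.30 ± 0.078.

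Genes that respond to IL-2 were then taken from the contrast of IL-2 at 4 hr with unstimulated cells, whose libraries are not among the 6. At 4 hr, 175 of 14992 genes were higher with IL-2 than in unstimulated cells (1.17%) and 1.09% of genes were lower. At 90 min, 102 of 173 tested genes of the former group fell with IL-2-REH and 0 rose, against 4.38% and 3.54% of all genes. A value below 0 was found for 154 of the 173. Their median was -0.41 in the paired fit and -0.40 in the fit of 15 libraries, and -0.27, -0.30 and -0.27 in pairs 1, 2 and 3, computed from RPKM + 1. Of the genes lower with IL-2 at 4 hr, 34 rose with IL-2-REH and 1 fell, with a median of 0.12. The choice of these genes depended on the replicates. Without replicate 1, 981 genes were higher at 4 hr and their median was 0.044, and without replicate 2 or 3 it was -0.94 (2 genes) and -0.86 (11 genes).

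The 4 hr libraries allowed the same contrast in other libraries. These carry the same replicate numbers and, by number, the same pattern of Xist and Ddx3y, so they may not be separate sources of cells. Of the 595 genes that fell at 90 min, 535 were below 0 at 4 hr, and of the 480 that rose, 403 were above 0, where 48.5% of all 13567 genes tested in both were below 0. Their medians at 4 hr were -0.43 and 0.29. Across the 1075 genes, which are not independent, the values at the 2 times correlated at 0.805 (Pearson's r), and across all genes at 0.329, without a test. Gpsm2 had 7.73, 10 and 7.82 RPKM with IL-2 at 4 hr and 3.14, 4.25 and 2.98 RPKM with IL-2-REH, and Txnrd1 had 27.8, 28.6 and 28.8 RPKM and 14.6, 13.2 and 11.1 RPKM. Both passed at 4 hr (-1.37, adjusted p = 0.0431, and -1.20, adjusted p = 0.0131, edgeR, 15 libraries), as did Ppp1r3b and Fam19a3 and no other (4 genes, 0.0267%). Bcl6 was at 5.91, 10.2 and 4.23 RPKM with IL-2 and at 11.3, 38.1 and 16.8 RPKM with IL-2-REH at 4 hr. A change of the difference between the times passed for 0 genes (edgeR, adjusted p under 0.05, 0.0%), and DESeq2 and limma also gave 0. At an unadjusted p under 0.05, 47 genes did (0.314%).

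**Figure D4:**
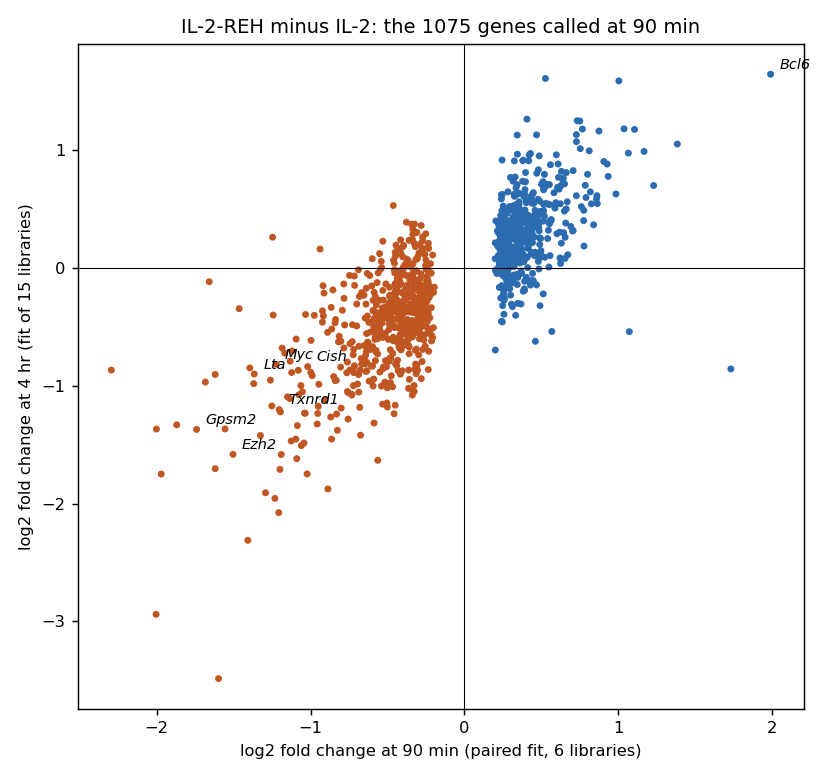
Log2 fold change of IL-2-REH minus IL-2 at 4 hr (vertical axis, fit of 15 libraries) against that at 90 min (horizontal axis, paired fit) for the 1075 genes that passed at 90 min. Of the 595 orange points (lower at 90 min), 535 lie below 0 at 4 hr, and of the 480 blue points 403 lie above 0.

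CD8+ T cells had 1 library per condition, so their values carry no replicate error and no test. Cish was at 30.6 RPKM with IL-2 and at 2.47 RPKM with IL-2-REH at 90 min, against 1.87 RPKM unstimulated, whereas in Tregs IL-2-REH left it at 49.3% of the IL-2 level. Lta was at 33.4 and 4.33 RPKM (3.21 unstimulated) and Socs1 at 36.2 and 8.76 RPKM (9.25 unstimulated). Bcl6 was at 0.898 RPKM with IL-2 and 6.23 RPKM with IL-2-REH (3.21 unstimulated). Gpsm2, at 3.43 and 1.53 RPKM, and Txnrd1, at 19.9 and 10.4 RPKM, were lower with IL-2-REH there as well, but IL-2 left them near the unstimulated 3.12 and 20.1 RPKM.

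Promoter sequence was set beside these results because STAT5 binds the palindrome TTCNNNGAA, which reads the same on both strands. It was searched in the 250 bases before the RefSeq transcription starts (GRCm38.p6), and a gene was counted when any of its starts had a match. Of 9945 tested genes found in the promoter table, 727 had a match (7.31%). Of the genes that fell, 431 were found and 56 had a match (13.0%), and of those that rose, 344 were found and 21 had a match (6.1%). The windows of Cish, Socs1, Gpsm2, Ezh2, Il2ra and Rnf19b held none, and no promoter was found for Socs2, Myc, Kpna1 and Ppp1r3b. Txnrd1 had a match before 2 of its 3 starts and Foxp3 before 1 of 2. Lta had 2 matches, and Bcl6 had 3 before its downstream start and 1 before its upstream start. As the genes that moved furthest in opposite directions among STAT5 targets, Lta and Bcl6 are printed with 20 bases on each side where the window allows, 5′ to 3′ on the strand of the gene (minus in both), and with the matches in capitals. The first base of a match lay 152 and 16 bases before the start in Lta, 168, 122 and 88 bases before the downstream start of Bcl6, and 118 bases before its upstream start. The windows are chr17:35205352-35205523, chr16:23981343-23981471 and chr16:23988942-23988990. Another pattern, TGANNNNGC, was searched in the same windows. It was present for 41.2% of the tested genes found there, 45.7% of those that fell and 39.2% of those that rose. A match is a description of the letters and not evidence of binding.
Lta: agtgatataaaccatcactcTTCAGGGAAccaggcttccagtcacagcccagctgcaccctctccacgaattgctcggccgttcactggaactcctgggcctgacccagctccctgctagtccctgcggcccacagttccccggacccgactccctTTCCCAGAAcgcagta
Bcl6, downstream start: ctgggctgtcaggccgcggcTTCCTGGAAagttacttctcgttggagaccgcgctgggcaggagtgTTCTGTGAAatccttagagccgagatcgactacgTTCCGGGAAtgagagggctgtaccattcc
Bcl6, upstream start: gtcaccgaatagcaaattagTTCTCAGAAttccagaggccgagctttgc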

How the data were processed

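Per the submitters' notes and the study's methods, 50-base single-end reads of mRNA libraries were mapped to mm10 with Bowtie2 2.2.6 and TopHat2 2.1.1, and SAMtools 0.1.8, bedtools 2.25.0 and edgeR are named, the counting tool and strand use not being given in the sources used here. The authors deposited read counts for 31682 RefSeq transcripts per library, without normalization, and beside them RPKM, scaled to the mapped reads of each library. For 4343 of 23992 symbols with several transcripts, the 1 with the highest sum of reads across the series (20 libraries) stood for the gene.

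Counts were tested with edgeR 4.0.16 in R 4.3.3 (TMM, filterByExpr, glmQLFit and glmQLFTest, two-sided, Benjamini-Hochberg adjustment over all tested genes, threshold 0.05). The design chosen first was 1 mean per group over the 15 Treg libraries. The replicate number as a block, the 6 libraries alone, and the 6 libraries with the block were set beside it. Pairing was accepted because the deviations of same-numbered libraries correlated above 0.1 in all 3 pairs, before the calls of the fits were compared. The design chosen first, without the block, is named the fit of 15 libraries. The text gives values of that fit for few genes and those of the paired fit for the rest. Standard errors are Wald errors with the quasi-likelihood dispersion and intervals are 95%. P-values of the fit of 15 libraries measure the spread between libraries of a group. Those of the paired fit measure the spread that remains once the replicate number is taken out. The origin of the libraries in separate mice is not stated. DESeq2 1.42.0 and limma 3.58.1 on log2(RPKM + 1) were alternatives. Fits were tested on simulated data. No libraries held identical counts (0 pairs of the 20).

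The gene lists (24, with 420 of 424 symbols found) and the comparison were chosen with earlier results of these data known. Some genes stand in several lists, such as Il2ra, Cish, Lta, Mcl1 and Dusp1, so counts of different lists are not separate results. Genes were named where they passed at 90 min or 4 hr in the fit of 15 libraries, or were among the 10 lowest and 10 highest values with an unadjusted p under 0.05, a mean RPKM of at least 1 and the same sign in every pair, or were named by the study for Tregs, or were among the 4 smallest p of a list. List members that passed in the paired fit and its 30 lowest and 20 highest values, as well as Il10ra and Rragd, were added after their values were seen. Coordinates, overlaps and promoters are from RefSeq on GRCm38.p6. Values were handled with Python 3.11.15, pandas 2.3.3 and numpy 2.4.6, and figures drawn with matplotlib 3.10.9. Some genes of the lists are counted but not reported here by name.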

Additional observations from a re-analysis of the deposited data

Results flagged for a closer look

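Among the genes named and above a mean of 1 RPKM, 3 had opposite signs in all 3 pairs at 90 min and at 4 hr. Tnfrsf26, a TNF receptor family gene, had a mean log2 ratio of RPKM + 1 (IL-2-REH to IL-2) of -0.31 at 90 min and 0.49 at 4 hr. Cd68, a macrophage marker, had -0.12 and 0.37, and Cd8b1, a CD8 marker, had -0.039 and 0.56. The change between the times did not pass for any of the 3 (edgeR, 15 libraries, adjusted p = 1.0 each).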

How the results depend on the processing

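Against the 2 genes of the fit of 15 libraries, 0 passed in the 6 libraries alone and with limma at either pseudocount (1 or 0.1), 2 with the block, RLE size factors, no filter or longest transcripts, 3 with a mean of at least 5 RPKM, 15 with DESeq2 and 1075 in the 6 libraries with the replicate block. Leaving out replicates gave 0 to 1. Chosen after seeing the data, DESeq2 with the block gave 26, leaving out unstimulated replicate 1 gave 5 (Gpsm2, Txnrd1, Adam19, Ezh2 and Rnf19b), and the 12 stimulated libraries with the block gave 12, among them Cish, Myc and Bcl6. Gpsm2 and Txnrd1 kept their sign in every setting run and did not pass in 11 and 12 of the 19 alternatives. The paired count of 1075 became 0 without the pairs, 1026 with DESeq2, 880 with limma, 1468 without a filter and 606 to 1590 without a replicate, 606 without replicate 3. All genes tested there kept their sign, and 1010, 785 and 586 of the 1075 passed again without replicate 1, 2 and 3.

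The median over genes higher with IL-2 at 4 hr (-0.40) was -0.21 with the block, -0.14 with DESeq2, -0.43 with limma and -0.42 without a filter, and ranged from -0.94 to 0.044 without a replicate, reversing without replicate 1, when 981 genes were chosen. That over genes lower with IL-2 (0.14) was 0.089 with DESeq2, 0.088 with limma and 0.055 to 0.62 without a replicate, and without replicate 3 no gene was left. With a 2-fold difference in all 3 pairs, 10 genes were counted (8 lower), 16 at a pseudocount of 0.1, 97 at a threshold of 0.5 and 9 or 10 otherwise. The change between times passed for 0 genes in every alternative, with 13 to 149 at an unadjusted p under 0.05. The cause of these differences was not tested.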
